A study of Mus musculus with 2 samples.

Results

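The miR-130/miR-301 family is the set of mouse miRNA genes Mir130a, Mir130b, Mir301 (also written Mir301a) and Mir301b. Its members were taken by name. A row belonged to the family if its Ensembl identifier mapped to one of these symbols in the GENCODE annotation of GRCm38, and 4 of 4 symbols had a row among the 1973 miRNA genes counted. The 2 libraries came from microRNA-seq of total RNA of neural tube, the embryonic precursor of brain and spinal cord, from B6NCrl mice at embryonic day 14.5, with no treatment named. Replicate 1 came from pup 1 of dam 1 and replicate 2 from pup 1 of dam 2, and they formed 1 group. The labels describe a single neural tube per library but also a pooled sex, so how many embryos each library held is not settled. The study had no second tissue, stage or genotype, and the comparisons possible were between members and between these libraries.

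A miRNA is cut from a hairpin precursor, either arm of which can yield a mature strand, and is loaded into an Argonaute protein. Bases 2 to 8 of the mature strand, the seed, carry most of the pairing to target messenger RNAs, so miRNAs with equal seeds are grouped into a family and are predicted to share targets. miR-130/miR-301 miRNAs are known for repressing Pparg in fat cell formation and for roles in blood vessel cells, where miR-130a represses the homeobox genes Meox2 and Hoxa5.

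The mature sequences are shown because the shared seed defines the family and because the bases after it are what lets a read be assigned to a member. All come from RefSeq on GRCm38.p6 and run 5′ to 3′, with the seed in capitals.
miR-130a-3p: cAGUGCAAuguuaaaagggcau
miR-130b-3p: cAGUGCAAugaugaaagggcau
miR-301a-3p: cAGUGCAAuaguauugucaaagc
miR-130a-3p and miR-130b-3p had 20 of 22 bases in common and differed by U11A and A13G, where positions count from 1 at the 5′ end and the base of miR-130a-3p comes first. miR-301a-3p kept the first 9 bases of both, and 12 of 22 positions were equal to miR-130a-3p and 11 of 22 to miR-130b-3p. The hairpins of the pair of genes on chromosome 16 are given whole, with the family seed in capitals.
Mir130b hairpin: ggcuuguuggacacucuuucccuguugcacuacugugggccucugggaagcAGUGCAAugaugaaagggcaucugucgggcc
Mir301b hairpin: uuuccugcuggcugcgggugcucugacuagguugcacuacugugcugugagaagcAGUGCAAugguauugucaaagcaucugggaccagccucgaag
The seed AGUGCAA was found, on the listed strand only, in 12 of 1005 mouse hairpins of that table (1.19%) and at bases 2 to 8 of 7 of 1738 mature sequences (0.403%). Of those 7, 3 are the sequences of Mir130a, Mir130b and Mir301 printed above. For Mir301b that table held only the mature sequence miR-301b-5p, so its seed is read from its hairpin and it is not among the 7. The longest run that any member's hairpin shared with another hairpin was 17 bases for Mir130a, with Mir6389, and 16 bases for each of the other members. Mir301 and Mir301b shared their 16 bases with each other. These runs are shorter than the listed mature sequences of 22 and 23 bases. Laid on the Mir301b hairpin at the seed, miR-301a-3p matched 22 of 23 bases, with A10G as the difference (the base of miR-301a-3p first), so Mir301 and Mir301b were the closest pair of members over this stretch. The number of mismatches allowed in the alignments is not stated, and any exchange of reads between these genes was not tested. A read at several positions was counted for no gene, and such reads were 32.4% of replicate 1 and 33.3% of replicate 2. The genome outside these hairpins was not searched for further copies.

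The family made up 1.72% of sense-strand miRNA-gene counts in replicate 1 (54410 of 3172235 counts, exact Clopper-Pearson 95% interval 1.70 to 1.73) and 2.14% in replicate 2 (78438 of 3671915 counts, 2.12 to 2.15). The mean was 1.93% ± 0.298 (SD, n = 2). Replicate 2 had the higher share, by more than counting error. Shares here are of counts at single positions, and they sum to a whole, so the level of any abundant gene bears on them. Reads carried no stated molecular identifiers, so intervals and limits cover counting error only. With 1 library per dam, the spread seen between these libraries may come from litter, embryo or library preparation, which cannot be told apart.

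Mir130a, the gene at chromosome 2, 84741115 to 84741178 on the minus strand, was by far the most abundant member. It had 39267 counts in replicate 1 and 57032 in replicate 2, which is 12378 and 15532 counts per 1000000 sense counts (CPM). Its mean level of 13955 ± 2230 CPM (SD, n = 2) put it at rank 11 of all 1973 genes, at rank 11 in replicate 1 and rank 12 in replicate 2. Of the 1973 genes, 1295 had no count in either library. GENCODE M21 placed no other gene over Mir130a. The nearest was the protein-coding gene Gm19426, 990 bases away on the same strand, and Ypel4 lay 2459 bases away on the opposite strand.

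Mir130b, whose miRNA is known to repress the p53-induced gene Trp53inp1 in tumour cells, came next. It had 9096 and 13578 counts, or 2867 CPM in replicate 1 and 3698 CPM in replicate 2, with a mean of 3283 ± 587 CPM (SD, n = 2) and rank 39. Mir130b lies at chromosome 16, 17124061 to 17124142 on the minus strand. Mir301b lies beside it at 17124400 to 17124496 on the same strand, with 257 bases between them, and both are inside an intron of the protein-coding gene 2610318N02Rik, which 3 of its 8 transcripts span there. Mir301b had 406 and 518 counts, the fewest of the family. Its levels were 128 CPM (95% interval 116 to 141) in replicate 1 and 141 CPM (129 to 154) in replicate 2, with a mean of 135 ± 9.25 CPM (SD, n = 2) and rank 175. Although the pair sits within one host intron, Mir130b had 22.4 counts for each Mir301b count in replicate 1 (exact 95% interval 20.3 to 24.8) and 26.2 in replicate 2 (24.0 to 28.7).

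Mir301, the gene of miR-301a, whose product is known to raise NF-kappaB activity by repressing Nkrf, ranked between the chromosome 16 genes. It had 5641 and 7310 counts, or 1778 CPM in replicate 1 and 1991 CPM in replicate 2, with a mean of 1885 ± 150 CPM (SD, n = 2) and rank 61. It lies at chromosome 11, 87113004 to 87113089 on the plus strand, in an intron of Ska2, which encodes a subunit of the spindle and kinetochore associated complex. Prr11 lies 4295 bases away on the opposite strand, and no other miRNA gene lay within 10 kb of Mir301 or of Mir130a.

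**Figure D1:**
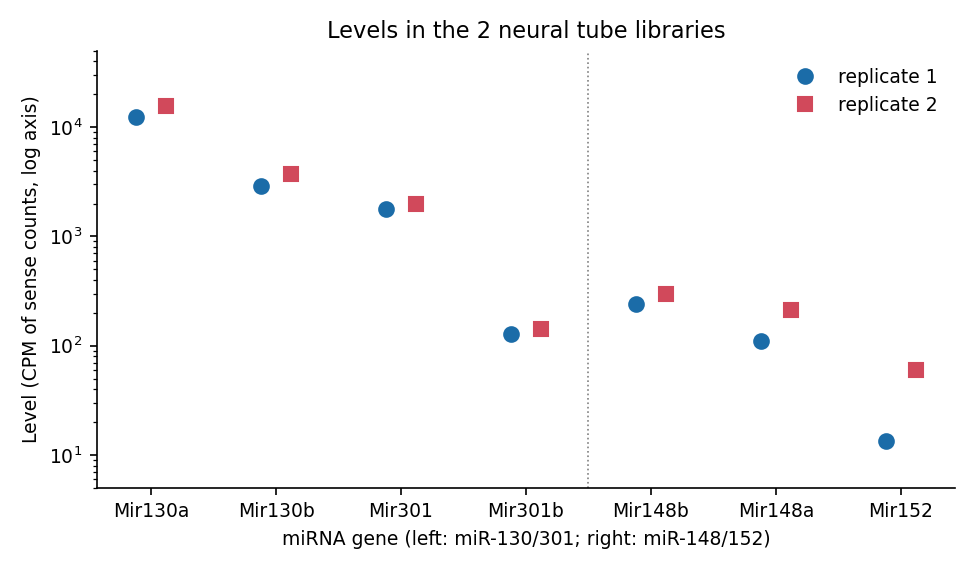
Levels of the 4 miR-130/miR-301 genes and of the 3 miR-148/miR-152 genes in CPM of sense counts, on a log axis, with replicate 1 as circles and replicate 2 as squares. The points run from 15532 CPM for Mir130a to 13.6 CPM for Mir152, and the 4 family members keep 1 order in both libraries.

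The order Mir130a, Mir130b, Mir301, Mir301b was the same in both libraries, and each step exceeded counting error in each. Mir130a had 4.32 counts per Mir130b count in replicate 1 (exact 95% interval 4.22 to 4.42) and 4.20 in replicate 2 (4.12 to 4.28). Mir130b had 1.61 counts per Mir301 count in replicate 1 (1.56 to 1.67) and 1.86 in replicate 2 (1.81 to 1.91). Those intervals do not overlap, so this smallest step differed between the libraries by more than counting error, whereas it kept its side in both. Mir301 had 13.9 counts per Mir301b count in replicate 1 (12.6 to 15.4) and 14.1 in replicate 2 (12.9 to 15.5). Per base of the annotated hairpin the steps were 5.53 and 5.38 from Mir130a to Mir130b, 1.69 and 1.95 from Mir130b to Mir301, and 15.7 and 15.9 from Mir301 to Mir301b, in replicates 1 and 2. Hairpin length rises in the order of the members (64, 82, 86 and 97 bases), so this division could only widen the steps. How far adapter ligation favoured one mature end over another was not tested, and counts per gene hold both arms of a hairpin.

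**Figure D2:**
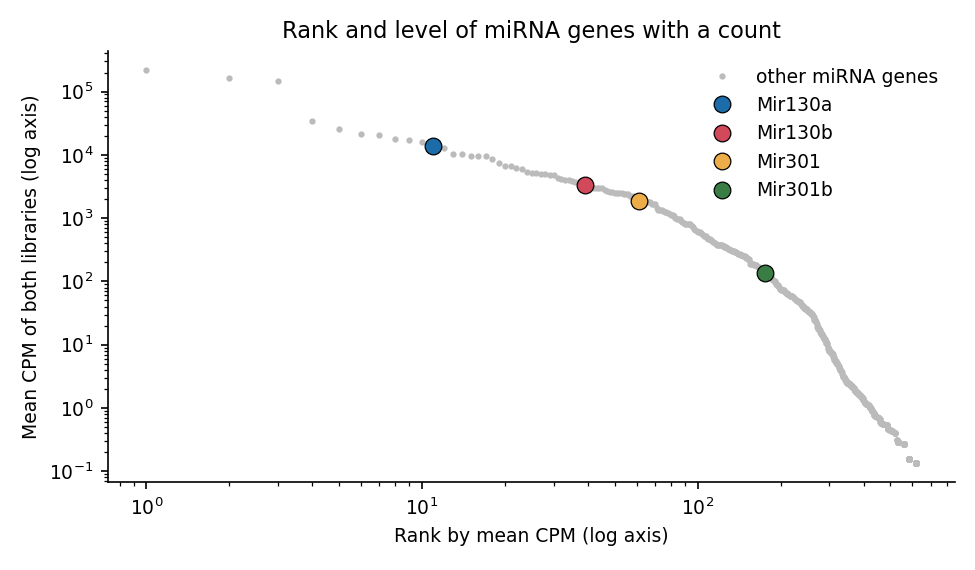
Mean CPM of both libraries against rank, both on log axes, for every miRNA gene with a count (grey) and the 4 family members (coloured). Mir130a sits at rank 11, Mir130b at 39, Mir301 at 61 and Mir301b at 175, so the family spans the upper and middle part of the curve.

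As parts of the family's own counts, which need no scaling between libraries, the members differed little between libraries. Mir130a held 72.2% of family counts in replicate 1 and 72.7% in replicate 2, with a mean of 72.4% ± 0.383 (SD, n = 2). Mir130b held 16.7% and 17.3%. Mir301 held 10.4% (exact 95% interval 10.1 to 10.6) in replicate 1 and 9.32% (9.12 to 9.53) in replicate 2, a difference beyond counting error in the direction opposite to Mir130b. Mir301b held 0.746% and 0.660%, with overlapping intervals of 0.676 to 0.822 and 0.605 to 0.720.

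**Figure D3:**
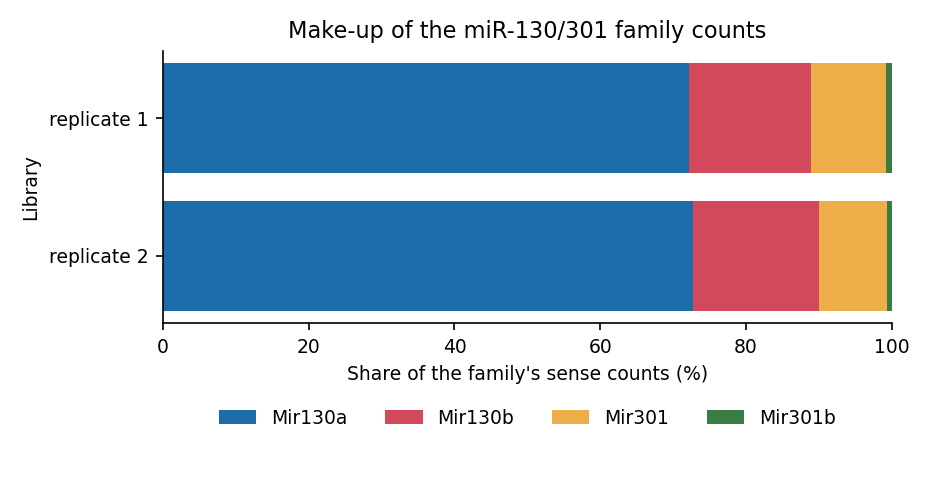
Share of the family's sense counts held by each member, as stacked bars from 0 to 100%, for replicate 1 and replicate 2. Mir130a takes 72.2% and 72.7%, and Mir301b is the thin band at the right end of each bar.

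Between the libraries, all 4 members stayed well inside a 2-fold difference. Scaling between libraries used TMM, a trimmed mean of gene-wise log ratios, and ratios are replicate 1 over replicate 2 on the log2 scale. Mir130a had a log2 ratio of -0.11 (95% interval -0.13 to -0.10; exact binomial test, two-sided, adjusted over all tested genes by Benjamini-Hochberg, p = 4.16e-33) and Mir130b one of -0.15 (-0.19 to -0.12; adjusted p = 9.9e-15 by the same exact test). Both were therefore higher in replicate 2 by more than counting error, by 1.08-fold and 1.11-fold. Mir301 stood at 0.05 (0.00 to 0.10; exact binomial test, adjusted p = 0.0862) and Mir301b at 0.07 (-0.12 to 0.26; adjusted p = 0.577 by the same exact test), and with scaling by total counts these turned to -0.16 and -0.14. Total-count scaling moved every log2 ratio by -0.21, so that Mir130a stood at -0.33 and Mir130b at -0.37.

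A gene was called when its adjusted p was below 0.05 and its fold at least 2. Of the 4 members 0 were called, 2 had an adjusted p below 0.05 without reaching 2-fold, and 2 did not pass it. Over all 360 tested genes, which had at least 10 counts in 1 library or more, 37 were called (10.3%) and 204 (56.7%) had an adjusted p below 0.05. Beside that share, 0 of 4 is no result about the family. The median log2 ratio of the members was -0.03, with 2 below 0 and 2 above, against -0.02 over all tested genes, of which 185 (51.4%) were below 0. The median absolute log2 ratio over tested genes was 0.29. A larger absolute ratio than that of Mir130a was held by 79.7% of tested genes, than that of Mir130b by 71.4%, than that of Mir301b by 85.3% and than that of Mir301 by 91.4%. Tested genes needed only 10 counts in 1 library, and counting error widens the ratios of low genes. These shares were not matched by level. With both libraries taken as replicates, edgeR's common dispersion gave a coefficient of variation of 28.6% over 329 genes. With that spread the edgeR exact test gave each member an adjusted p of 1. The spread came from the same libraries that were then compared, and each member differed less than the median tested gene. That outcome was thus largely fixed in advance and decides nothing about the members. The binomial test compares these libraries and covers counting error alone.

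**Figure D4:**
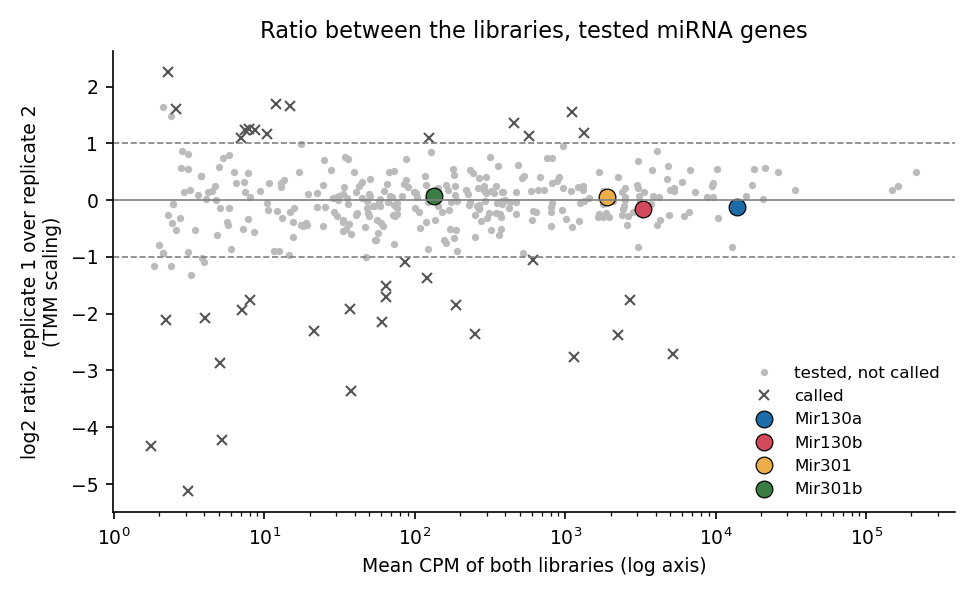
log2 ratio of replicate 1 over replicate 2 (TMM scaling) against mean CPM on a log axis for the 360 tested genes, with called genes as crosses, members coloured and dashed lines at a 2-fold difference. The members lie between -0.15 and 0.07 over a range of levels from 135 to 13955 CPM.

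Other measured genes with the same seed had no counts. Outside the family, RefSeq lists the seed for 4 mature miRNAs, shown to let their later bases be compared with those of the members.
miR-130c: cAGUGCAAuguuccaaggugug
miR-6341: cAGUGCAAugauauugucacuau
miR-6389: cAGUGCAAuguuaaacuuugc
miR-721: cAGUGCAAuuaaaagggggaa
Mir130c, Mir6341 and Mir6389 each had 0 counts in both libraries, which leaves room for 0.946 CPM (replicate 1) and 0.817 CPM (replicate 2). Mir721 was not analysed here.

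The miR-148/miR-152 family has a seed offset by 1 base, since its seed CAGUGCA equals bases 1 to 7 of the miR-130/miR-301 miRNAs. Seeds offset to the other side were not searched for, so no family is ranked as closest. Only 3 of the 1738 mature sequences have the seed CAGUGCA. All are of the miR-148/miR-152 family, whose best known target is the DNA methyltransferase Dnmt1. They are shown to make the offset of 1 base visible, with their own seed in capitals.
miR-148a-3p: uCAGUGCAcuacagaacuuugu
miR-148b-3p: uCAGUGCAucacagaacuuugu
miR-152-3p: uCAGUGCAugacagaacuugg
Their genes were far lower. In counts, the miR-130/miR-301 genes together exceeded the miR-148/miR-152 genes 47.2-fold in replicate 1 (exact 95% interval 44.6 to 50.1) and 37.4-fold in replicate 2 (35.8 to 39.1). Mir148b had 240 and 297 CPM, Mir148a 110 and 214 CPM, and Mir152 13.6 and 60.2 CPM, in replicates 1 and 2. Mir301b, the lowest miR-130/miR-301 gene (128 and 141 CPM), lay below Mir148b in both libraries and below Mir148a in replicate 2. Mir152 was called as higher in replicate 2 (43 and 221 counts, log2 ratio -1.92, exact binomial test, adjusted p = 2.83e-19), so 1 of 3 genes of that family was called, against 0 of 4 here. Whether the families differ in this was not tested, and beside 10.3% called over all tested genes neither count is a result about its family.

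Marker miRNAs of the tissue and of other cell types that the dissection could hold were measured in the same tables. Over all 360 tested genes, 14 were called as higher in replicate 1 and 23 as higher in replicate 2. Neural markers were present in both libraries. The neuronal list had summed levels of 14895 and 13955 CPM over 11 measured genes, led by Mir137 (9594 and 9321 CPM), and 2 of its 9 tested genes, Mir128-1 and Mir128-2, were called as higher in replicate 1, at log2 ratios of 1.18 and 1.13 that fell short of 2-fold with total-count scaling (0.97 and 0.92). Among its low genes were Mir124a-1, Mir124a-2 and Mir124a-3, copies of the defining neuronal miRNA, at 1.26 to 6.62 CPM, and reads shared between copies entered no count. Neural progenitor genes, led by Mir135b, summed to 7871 and 7387 CPM, and oligodendrocyte genes, led by Mir219a-2, to 2674 and 2541 CPM. Not all genes followed these sums. Of 9 tested neuronal genes 3 had a log2 ratio below 0, among them Mir138-1 at -0.47 (853 and 1372 CPM). Of 3 oligodendrocyte genes 1 did, Mir338 at -0.65 (179 and 326 CPM), and of 4 neural progenitor genes 0 did. The endothelial gene Mir126a, the 1 measured of 2 listed, had 8443 CPM in replicate 1 and 17271 CPM in replicate 2 (log2 ratio -0.82, and -1.03 with total-count scaling). Its ratio lay below 0, as did those of Mir130a, Mir130b and 51.4% of all tested genes. Of 7 mesenchymal genes 5 were tested, and 5 of 5 (Mir143, Mir145a, Mir199a-2, Mir199b and Mir214) were called as higher in replicate 2. In replicates 1 and 2, Mir199a-2 had only 1 and 37 counts and Mir199b 18 and 254. The sum of the list went from 1197 to 4894 CPM, with Mir143 at 1089 and 4283 CPM and Mir145b at 0. Sensory genes, led by Mir182 (1212 and 9159 CPM), summed to 2109 and 15050 CPM, and 3 of 3 (Mir96, Mir182 and Mir183) were called as higher in replicate 2. The part of these cells in the levels of the family was not tested, and in whole tissue fewer cells of a type and less RNA per cell cannot be told apart.

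The blood, epithelial, muscle and liver lists were low. Erythroid genes summed to 94.3 and 113 CPM, led by Mir451a at 64.3 and 88.2 CPM, and leukocyte genes to 125 and 232 CPM, with Mir223 at 19.9 and 102 CPM, the highest of 3 measured genes by mean and in replicate 2 but the lowest in replicate 1. Epithelial genes summed to 407 and 508 CPM, mostly Mir203 at 374 and 474 CPM. Muscle genes summed to 45.4 and 53.1 CPM, with Mir206 at 44.1 and 51.5 CPM and Mir133a-1 and Mir133a-2 at 0, and the liver gene Mir122 had 43.5 and 35.9 CPM. A read at several positions was counted for no gene, so a 0 at Mir133a-1 and Mir133a-2 does not show that their RNA was absent. Called as higher in replicate 1 were Mir486 of the erythroid list (56 and 23 counts) and Mir200c of the epithelial list (34 and 19 counts), both on few counts. The other erythroid genes, Mir451a and Mir144, had log2 ratios of -0.24 and -0.39. Of 5 tested epithelial genes 2 were below 0, Mir203 at -0.13 and Mir205 at -0.56. Mir223 of the leukocyte list was called as higher in replicate 2, and 0 genes were called in the muscle and liver lists, each with 1 tested gene. With the edgeR exact test at the estimated dispersion 0 genes of the whole table were called as higher in replicate 1, so the calls of Mir486, Mir200c, Mir128-1 and Mir128-2 were lost there. Genes called as higher in replicate 2 fell from 23 to 9 over the whole table. The calls named here as higher in replicate 2 therefore did not all hold either.

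Lists with which the family is often named were compared in the same way. In the miR-17/miR-92 cluster and its paralogs, known for promoting proliferation, 0 of 14 tested genes were called, and 13 of 14, all but Mir19a, had a log2 ratio below 0, with a median of -0.40. Mir17, its most abundant gene, had 8454 and 12138 CPM, below Mir130a in each library. In the hypoxia and vascular list 2 of 7 tested genes, Mir221 and Mir503, were called, both higher in replicate 2, with a median of -0.82, and Mir126a was its most abundant gene. Over all tested genes 37 of 360 (10.3%) were called.

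**Figure D5:**
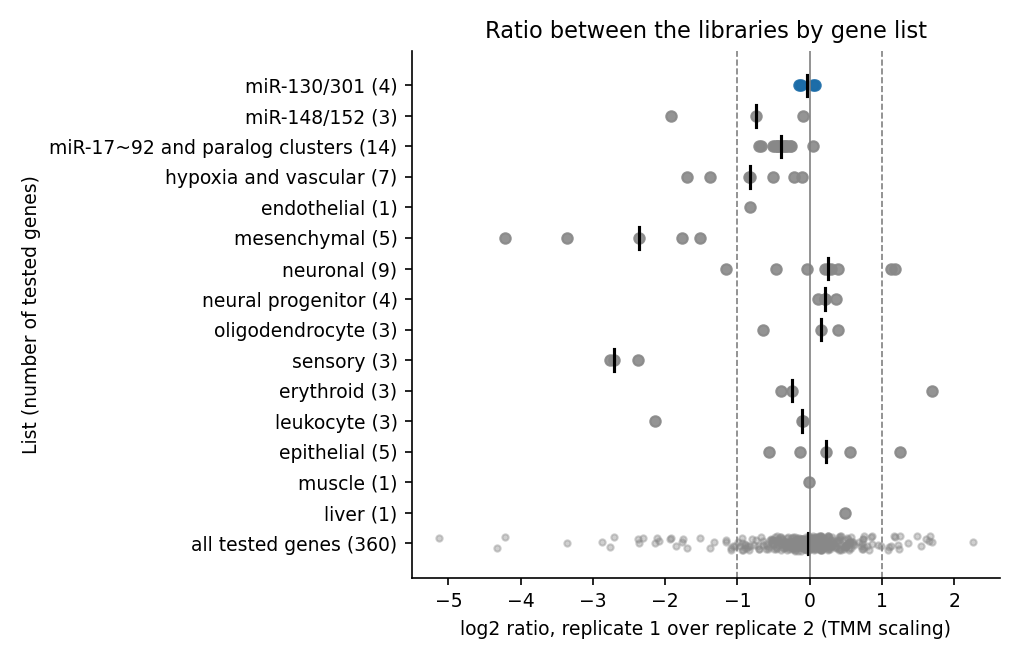
log2 ratio of replicate 1 over replicate 2 (TMM scaling) for each tested gene, by list, with the number of tested genes in brackets, the median as a black bar for lists of 3 or more, and dashed lines at a 2-fold difference. The 4 members (top row) lie close to 0, while the mesenchymal and sensory genes lie at the left, toward replicate 2.

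The reads at the members came almost wholly from the annotated strand. Mir130a had 0 other-strand counts in replicate 1 and 2 in replicate 2 (0.00351% of its either-strand counts), and Mir130b, Mir301 and Mir301b had 0 in both. A count of 0 allows up to 0.0330% for Mir130b and 0.739% for Mir301b in replicate 1. Over all miRNA genes the other strand held 1.26% and 1.49% of counts.

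Genes nearest to each member in level were found by the distance in log2(CPM + 1) over the 2 libraries. For Mir130a these were Mir30e (distance 0.31) and Mir99b (0.53), for Mir130b they were Mir181a-1 (0.12) and Mir541 (0.20), for Mir301 they were Mir361 (0.02) and Mir1983 (0.06), and for Mir301b they were Mir135a-2 (0.16) and Mir129-2 (0.17). With 2 libraries this is a likeness of level more than of pattern. No family member was among them, and the closest pair within the family, Mir130b and Mir301, stood at 1.61 to 1.86 counts for 1.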

How the data were processed

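The deposited values were raw read counts per miRNA gene, 1 table per library with 3 count columns (either strand, sense, other strand) and no normalization by the authors. The alignments used mm10 and annotation M4, per the text note deposited beside each table. The aligner, trimming and filters were left unstated in the sources used here. The 4 rows that name no gene (multimapping, unmapped, no feature, ambiguous) stayed out of library sizes and held 46.6% and 48.1% of all reads in replicates 1 and 2. Of 1973 identifiers, 1894 matched GENCODE M21 (GRCm38), the source of symbols, positions (counted from 1) and host genes.

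CPM was computed over 3172235 and 3671915 sense counts. Scaling used TMM in edgeR 4.0.16 (R 4.3.3). Each of 360 genes that reached 10 counts in either library was compared between libraries by a two-sided exact binomial test in scipy 1.17.1 with Benjamini-Hochberg adjustment over all of them. Log2 ratios had a prior count of 0.5. Intervals are exact 95% Clopper-Pearson intervals, and a count of 0 was read as up to 3 counts. With 1 library per dam, a quasi-likelihood fit between dams had no residual degrees of freedom. Alternatives were DESeq2 1.42.0 size factors, total-count scaling, minima of 1 and 100 counts, either-strand counts, a prior count of 2, other denominators, and edgeR's exact test with a dispersion.

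The members and gene lists were chosen with earlier results of these data known. Genes named were the 4 members, genes with their seed, the miR-148/miR-152 genes, the 2 genes nearest each member in level, the most abundant gene of each of 14 lists and miRNA genes within 10 kb. The Mir124a copies, Mir19a, Mir138-1, Mir338, Mir144, Mir205, genes at 0 and called genes of the lists were otherwise named after their values were seen. Mir126b, Mir142, Mir142hg, Mir9-1, Mir1a-2 and Mir424 were not analysed here. The procedures were tested on data simulated with counting error only, which cannot show how they behave under the spread between these libraries. Python 3.11.15, numpy 2.4.6, pandas 2.3.3 and matplotlib 3.10.9 were used.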

Additional observations from a re-analysis of the deposited data

How the results depend on the processing

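With all reads of the file as denominator the family's share was 1.01%, and the levels were 7335 CPM for Mir130a, 1725 for Mir130b, 991 for Mir301 and 70.8 for Mir301b; without the most abundant gene in the denominator they were 2.45%, 17761, 4176, 2402 and 172. Leaving out each replicate in turn gave 1.72 to 2.14% for the share, 12378 to 15532 CPM for Mir130a, 2867 to 3698 for Mir130b, 1778 to 1991 for Mir301 and 128 to 141 for Mir301b, and for the count ratios 4.20 to 4.32 (Mir130a over Mir130b), 1.61 to 1.86 (Mir130b over Mir301), 13.9 to 14.1 (Mir301 over Mir301b) and 22.4 to 26.2 (Mir130b over Mir301b). Per base of the annotated hairpin, an alternative chosen after seeing the data, the mean ratios were 5.46 for Mir130a over Mir130b, 15.8 for Mir301 over Mir301b and 28.8 for Mir130b over Mir301b. The order of the members held under the alternatives run for it, though division by hairpin length could only widen the steps and could not change the order. With total-count scaling the log2 ratios of Mir301 and Mir301b reversed to -0.16 and -0.14. Over the 6 alternatives Mir130a ranged from -0.33 to -0.10 and Mir130b from -0.37 to -0.14. Genes called over the whole table were 37 of 360 tested (10.3%) in the main setting. With a minimum of 100 counts they were 20 of 265 (7.55%), where fewer genes were tested. Of 360 tested with the edgeR exact test, 21 (5.83%) were called at a coefficient of variation of 0.2 and 9 (2.5%) at the estimated dispersion. In each setting 0 of 4 members were called, which beside those shares is no result about the family. The estimated dispersion came from the libraries that the test then compared, so its 0 of 4 decides nothing about the members. The share of called genes higher in replicate 2 went from 62.2% to 81.4% with total-count scaling, 75.0% with a minimum of 100 counts, 81.0% at a coefficient of variation of 0.2 and 100% (9 of 9) at the estimated dispersion. No paired analysis was possible because the libraries form 1 group. Depth limits Mir301b most, at 406 and 518 counts.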
